A study of Mus musculus with 3 samples.

Results

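The clustered protocadherins are cell-surface proteins of the cadherin superfamily, encoded by the alpha, beta and gamma gene clusters that lie in a row on mouse chromosome 18. Their members were found here by symbol (Pcdha, Pcdhb, Pcdhga, Pcdhgb or Pcdhgc with a number, and Pcdhac1 and Pcdhac2) through the RefSeq accession that the array gives for each probe. The RefSeq gene table lists 58 such genes, 14 in the alpha, 22 in the beta and 22 in the gamma cluster. Of these, 35 had at least 1 probe under their own accession, out of 20013 named genes with a probe on the array. All 22 beta genes had a probe, against 7 of 14 alpha and 6 of 22 gamma genes.

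Expression was measured on 1-colour Agilent arrays in primary mouse embryonic fibroblasts (MEFs), taken at embryonic day 10 from C57BL/6J mice that lacked both the retinoblastoma gene Rb and Atm, whose product is the kinase that signals DNA breaks. All 3 groups therefore carry the Rb-/-;ATM-/- genotype. They differ in what was delivered: nothing but the empty vector (the control array), a short hairpin RNA (shRNA) that targets Dnmt1, the enzyme that copies DNA methylation to new strands (the shRNA array), or an ATM vector (the ATM-labelled array). Every culture spent 3 days in 4 ug/ml puromycin and then 4 days of further culture, and was measured on 1 array. A group is thus a single culture without a replicate, no difference below has a test, and precision is limited by how few arrays there are.

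In neurons, each cell makes a few isoforms of these proteins, which pair with identical isoforms on other membranes and let a neuron tell its own branches from those of its neighbours. Every variable exon has its own promoter. In the alpha and gamma clusters it is spliced to constant exons shared by the whole cluster, whereas the beta genes are single-exon genes without a shared part. Promoter choice depends on CTCF and cohesin, which bring a promoter to a distant enhancer, and DNA methylation keeps unchosen promoters silent. Fibroblasts are not the cells in which this system is best known.

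The Dnmt1 probe had a processed signal of 4908 intensity units on the control array, 956 on the shRNA array and 3169 on the ATM-labelled array, which is 4.58-fold lower with the shRNA after scaling. The Atm probe well above background read 430, 366 and 409 in the same order. Where that probe lies with respect to the deletion and to the vector's sequence is not known here, so it checks neither the genotype nor the vector, hence the name ATM-labelled. Rb1 probe signals were 541, 782 and 460 units, with the same limit. Control and shRNA arrays were both on slide 1 in scan 1. The ATM-labelled one was on slide 2 in scan 2 without another array, so for that comparison slide, scan and group cannot be told apart. Of 15 fibroblast markers, 14, 15 and 14 were well above background on the control array, the shRNA array and the ATM-labelled array. Neuron markers numbered 7, 7 and 6 of 13. Snap25, Tubb3, Syp, Map2, Elavl4 and Gap43 were well above background on every array. In the same order of arrays, Snap25 read 6482, 6418 and 5943 units and Tubb3 read 4210, 5436 and 11235 units. Syt1 was well above background on the shRNA array alone, at 54.8 units, and Rbfox3 on the control array alone, at 88.2 units. Dcx, Stmn2, Nefl, Nefm and Elavl3 were not well above background on any array.

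A signal counts as detected here where the scanner software called it well above background, and a gene is detected if any of its probes is. Of the 35 members with a probe, 16 were detected on the control array (45.7%), 18 on the shRNA array (51.4%) and 19 on the ATM-labelled array (54.3%). Over 20006 named genes with a usable probe the shares were 63.7%, 68.1% and 63.3%. The beta cluster accounted for most of the detected members: 12, 13 and 15 of its 22 genes were detected on the 3 arrays in that order, against 2, 3 and 2 of 7 alpha genes and 2, 2 and 2 of 6 gamma genes. In all, 22 members were detected on at least 1 array and 13 on all 3. Levels of different genes cannot be compared, because each is read by a different probe.

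**Figure D1:**
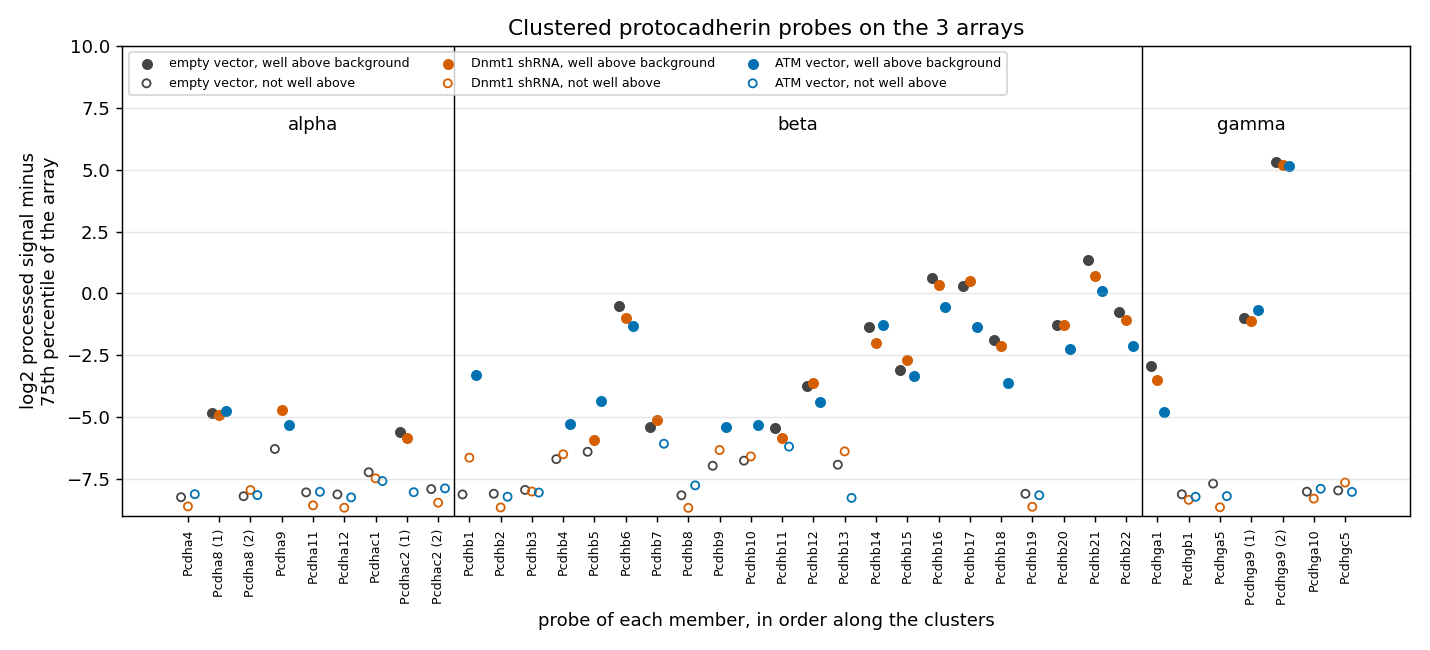
Normalized log2 signal (log2 processed signal minus the 75th percentile of the array, y axis) of every probe of the 35 members (x axis, in order along the alpha, beta and gamma clusters) on the 3 arrays. Filled points are well above background and open points are not; points are to be compared within a probe, and the ATM points of Pcdhb16 to Pcdhb18 and Pcdhb20 to Pcdhb22 lie below both other arrays.

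The undetected members were Pcdha4, Pcdha11, Pcdha12 and Pcdhac1 in the alpha cluster, Pcdhb2, Pcdhb3, Pcdhb8, Pcdhb13 and Pcdhb19 in the beta cluster, and Pcdhgb1, Pcdhga5, Pcdhga10 and Pcdhgc5 in the gamma cluster. For these no ratio is given. Pcdhb3 was spotted 10 times on each array. Its spots without an outlier mark ranged from 7.64 to 15.8 units on the control array, from 5.55 to 10.5 on the shRNA array and from 6.54 to 9.87 on the ATM-labelled array. On the shRNA array 1 of the 10 spots was called well above background, and that spot carried an outlier mark. The remaining 7 alpha genes (Pcdha1, Pcdha2, Pcdha3, Pcdha5, Pcdha6, Pcdha7 and Pcdha10) and 16 gamma genes had no probe under their own accession and were not analysed here.

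Setting the shRNA array against the control asks whether these genes differ when Dnmt1 is depleted. The counts of members past 2-fold (5.56% higher, 0% lower) were near the shares over all genes and say nothing particular about the members. Of 18 members detected on at least 1 of both arrays, 1 was at least 2-fold higher and 0 were at least 2-fold lower, where 7.68% and 2.23% of all 19359 genes tested were. The member that was higher was Pcdha9, which was detected on the shRNA array and not on the control array. With dim signals at their bound the counts stayed at 1 and 0, beside 4.79% and 1.81% of all genes. Among 16 members detected on both arrays, 0 passed 2-fold either way, beside 3.38% higher and 0.991% lower of all genes so detected. Of these 16, 12 had a log2 ratio below 0, as did 56.0% of all genes detected on both arrays, and the ratios ran from -0.66 to 0.43. The median over the 18 was -0.18, beside -0.02 over all genes tested. Medians by cluster were -0.10 for 3 alpha, -0.24 for 13 beta and -0.33 for 2 gamma members, while the pooled SD between probes for the same gene was 0.21 in this comparison.

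Pcdha9 had a processed signal of 29.5 ± 8.16 units on the control array, 77.5 ± 9.22 on the shRNA array and 53.1 ± 8.57 on the ATM-labelled array, where ± is the scanner software's own error of that spot (n = 1 array each). For bright spots this error was close to a fixed share of the signal, and it measures no spread between arrays or cultures. The control signal was not well above background, and the lowest signal that was on that array was 37.8 units. Set against that level, Pcdha9 was at least 2.30-fold higher with the shRNA and at least 1.55-fold higher on the ATM-labelled array. Both values rest on signals near the detection limit, and with a background correction by normexp in place of the scanner software's processing no member was 2-fold higher with the shRNA.

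The other detected alpha members stayed nearer the control with the shRNA. Pcdha8 read 81.4, 67.9 and 78.4 units by 1 of its 2 probes on the control array, the shRNA array and the ATM-labelled array, with log2 ratios of -0.10 and 0.08, and the other probe was not detected. Pcdhac2, the last variable exon of the alpha cluster and one of the C-type isoforms that many neurons express constitutively, read 48.1 ± 9.71, 36.2 ± 6.59 and 8.01 ± 7.97 units by 1 of its 2 probes. Its log2 ratio with the shRNA was -0.24. On the ATM-labelled array it was not detected, with a measured log2 ratio of -2.45, but against the lowest detected signal of 32.7 units there it was at least 1.34-fold lower. The measured ratio thus exceeds 2-fold and the bound does not.

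In the beta cluster 8 of 12 members detected on both arrays read lower with the Dnmt1 shRNA, beside the same 56.0% of all genes, and 0 by 2-fold. The lowest ratios belonged to Pcdhb14 at -0.66, Pcdhb21 at -0.64 and Pcdhb6 at -0.50. The highest among members detected on both arrays belonged to Pcdhb15 at 0.43 and Pcdhb7 at 0.29. Pcdhb5, detected with the shRNA and not in the control, was at 0.50 with a bound of 1.02-fold. Each of these beta genes encodes a whole protocadherin from a single exon. For the brighter of them the software's spot errors gave an error of about 0.20 on the log2 ratio. It was 0.20 for Pcdhb14, Pcdhb21 and Pcdhb6, 0.21 for Pcdhb15, and 0.32 for Pcdhb7, read near background. The errors of the brighter ones hardly differ because the spot error follows the signal, and they are no measured spread. In the gamma cluster Pcdhga1, the first variable exon, was at -0.54 and Pcdhga9 at -0.13 as the mean of 2 probes. None of these reached 2-fold.

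Setting the ATM-labelled array against the control asks which members differ between cells given ATM and cells given an empty vector. It shares its control array with the comparison above. Here members differed in both directions, with lower values towards the end of the beta cluster and at Pcdhga1, and higher values at 5 of the first 10 beta genes. Of 22 members detected on at least 1 of both arrays, 7 were at least 2-fold lower and 5 at least 2-fold higher (31.8% and 22.7%), beside 7.96% and 8.45% of all 18463 genes tested. With dim signals set at their bound, the counts were 6 lower and 2 higher, beside 6.36% and 6.95% of all genes. With normexp they were 6 and 1. The 5 higher members were all undetected on the control array and entered only through their signal on the ATM-labelled array, so their number and the medians that include them depend on that selection.

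**Figure D2:**
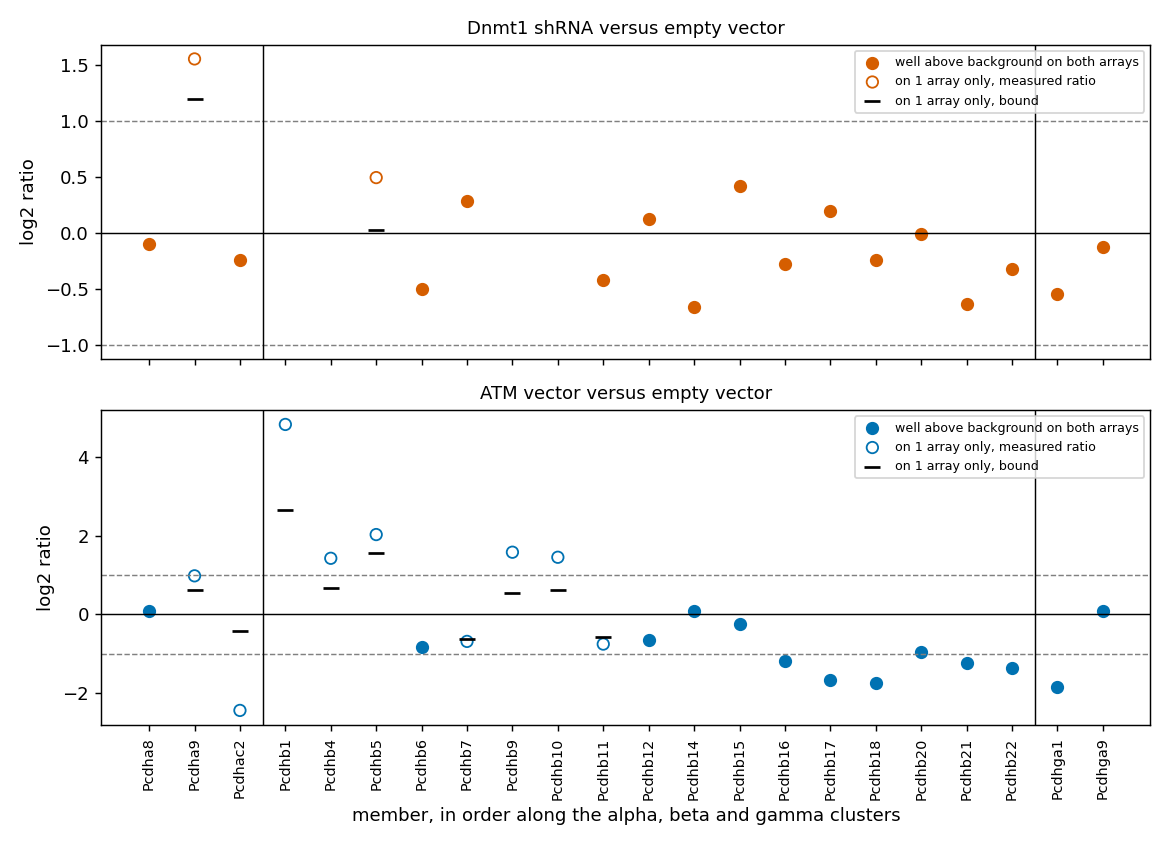
Log2 ratio to the control array (y axis) of the 22 members detected on any array (x axis, in order along the clusters), for the shRNA array (top) and the ATM-labelled array (bottom); dashed lines mark 2-fold. Filled points were detected on both arrays, open points on 1, with the bound as a dash; the shRNA ratios of the filled points lie between -0.66 and 0.43, whereas in the lower panel 6 filled points lie below -1.

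Members detected on both arrays carry the firmer values. There were 13, of which 10 had a log2 ratio below 0 (45.4% of all genes so detected did), 6 were at least 2-fold lower (46.2%) and 0 at least 2-fold higher. Over all 16628 genes detected on both arrays, 4.38% were lower and 5.69% higher. The median over the 13 members was -0.96, beside 0.06 over those 16628 genes. The 6 lower members were Pcdhb16, Pcdhb17, Pcdhb18, Pcdhb21, Pcdhb22 and Pcdhga1, that is, the last stretch of the beta cluster and the first gamma gene.

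Pcdhb16 read 3577 ± 358 units on the control array, 2631 ± 263 on the shRNA array and 1431 ± 143 on the ATM-labelled array. Pcdhb17 read 2837 ± 284, 2893 ± 289 and 808 ± 81.3 units. Pcdhb18 read 630 ± 63.6, 475 ± 47.8 and 172 ± 19.3 units. All 3 genes had their lowest signal on the ATM-labelled array, where the log2 ratios were -1.18, -1.67 and -1.74 with spot errors of 0.20, 0.20 and 0.22 (2.27-fold, 3.19-fold and 3.34-fold lower).

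Pcdhb20 read 953 ± 95.6, 843 ± 84.5 and 446 ± 45.2 units in the same order of arrays. Pcdhb21, at the brighter end of what these probes read, gave 5823 ± 582, 3335 ± 334 and 2234 ± 223 units. Pcdhb22, the last beta gene, gave 1360 ± 136, 968 ± 97.0 and 480 ± 48.9 units. On the ATM-labelled array the log2 ratios were -0.96, -1.24 and -1.36, so Pcdhb20 stopped just short of 2-fold (1.94-fold lower). Pcdhb21 and Pcdhb22 were 2.37-fold and 2.57-fold lower.

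Pcdhga1 read 301 ± 31.4, 184 ± 19.4 and 75.8 ± 11.7 units, the lowest ratio of any member detected on both arrays at -1.85 with a spot error of 0.27 (3.61-fold lower). Pcdhga9, whose protein differs from that of Pcdhga1 in the extracellular part while the end inside the cell is shared, did not follow it. One of its probes read 1168, 950 and 1336 units, a log2 ratio of 0.33, and the other read 90733, 74522 and 75177 units, a ratio of -0.13. The mean of both was 0.10. Whether a gamma or alpha probe lies in a variable or in a shared exon was not known here, and a probe in a shared exon would read every isoform of its cluster.

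The middle of the beta cluster differed less. Pcdhb12 read 173 ± 19.3, 169 ± 17.8 and 99.9 ± 12.9 units, a log2 ratio of -0.66 on the ATM-labelled array. Pcdhb14 read 898 ± 90.2, 506 ± 50.9 and 871 ± 87.4 units, a ratio of 0.09, and was lowest on the shRNA array instead. Pcdhb15 read 270 ± 28.0, 323 ± 32.7 and 209 ± 21.9 units, a ratio of -0.23. The last 2 lay within the pooled SD of 0.33 between different probes of one gene in this comparison.

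Pcdhb11 read 53.4, 35.6 and 28.7 units and Pcdhb7 read 55.2, 59.9 and 31.1 units, and neither was detected on the ATM-labelled array, where they were at least 1.49-fold and 1.53-fold lower. Pcdhb6 was detected on all 3 arrays. It read 1644 ± 165, 1039 ± 104 and 846 ± 84.9 units, log2 ratios of -0.50 and -0.82.

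Of the other 8 early beta genes, Pcdhb2, Pcdhb3 and Pcdhb8 were not detected, and the 5 that were detected, on the ATM-labelled array and not in the control, read higher. Pcdhb1, the first gene of the cluster, whose promoter is known to lack the conserved element that CTCF binds in most others, read 8.27 ± 8.25, 20.7 ± 6.28 and 216 ± 23.2 units and was at least 6.28-fold higher on the ATM-labelled array. Pcdhb5 read 27.3 ± 8.19, 34.4 ± 6.06 and 102 ± 12.2 units and was at least 2.96-fold higher. These are the 2 members whose bound passed 2-fold.

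Pcdhb4 read 22.3, 22.7 and 54.5 units, Pcdhb9 read 18.5, 25.6 and 50.4 units, and Pcdhb10 read 21.3, 21.4 and 53.2 units. All 3 were detected on the ATM-labelled array alone, where the lowest detected signal was 32.7 units. Their measured ratios were 2.70-fold, 3.00-fold and 2.75-fold, but their bounds were 1.59-fold, 1.47-fold and 1.55-fold higher. Repeated spots of one probe with signals between 30 and 300 units varied by a median SD of 0.13, 0.10 and 0.10 log2 units on the 3 arrays, which is technical and covers no difference between cultures.

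Divided after these values were seen, the 10 genes Pcdhb1 to Pcdhb10 and the 12 genes Pcdhb11 to Pcdhb22 give the pattern as counts, with no test. In the first stretch 2, 3 and 6 genes were detected on the control array, the shRNA array and the ATM-labelled array. Of 7 measured on the ATM-labelled array or its control, 5 were above and 2 below 0. Those 5 were undetected on the control array and entered only through the ATM-labelled array, so their sign follows from that selection. The 2 detected in the control, Pcdhb6 and Pcdhb7, were those below 0. Over all genes tested in this comparison 54.0% were above 0. In the second stretch 10, 10 and 9 genes were detected, and of 10 measured 1 was above and 9 below 0, with a median log2 ratio of -1.07. With the Dnmt1 shRNA the second stretch had a median of -0.26, with 3 genes above and 7 below 0. There 48.0% of all genes tested were above 0. Beta protocadherin sequences resemble each other, and cross-hybridisation between members was not tested.

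Other genes of the same chromosome were also lower on the ATM-labelled array. The 288 other genes of chromosome 18 detected on both arrays had a median log2 ratio of -0.33. Of them 28 (9.72%) were at least 2-fold lower and 14 (4.86%) at least 2-fold higher, beside 4.38% and 5.69% of all genes so detected. With the members included the median of the chromosome was the lowest of 20 chromosomes. Among the 10 nearest genes with a probe on either side of the clusters and the 2 between the beta and gamma clusters, 19 were detected on both arrays. Of these 19, 16 had a ratio below 0 and the median was -0.58, with 3 genes at least 2-fold lower (Cd14, a receptor for bacterial lipopolysaccharide, at -1.05, Tmco6 at -1.14 and 1700086O06Rik at -1.05) and 2 higher (E230025N22Rik at 1.33 and Pcdh1, a non-clustered protocadherin, at 1.52). Taf7, a subunit of the general transcription factor TFIID whose gene lies between the beta and gamma clusters, was at -0.51. With the Dnmt1 shRNA the same medians were -0.03 for the chromosome and 0.07 for the neighbours, and Dnd1, a germ-cell RNA-binding protein, was past 2-fold among those detected on both arrays, at 1.26. Arap3, a regulator of small GTPases, was detected only in the control and had a bound of -2.01 on the log2 scale with the shRNA and -1.65 on the ATM-labelled array.

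**Figure D3:**
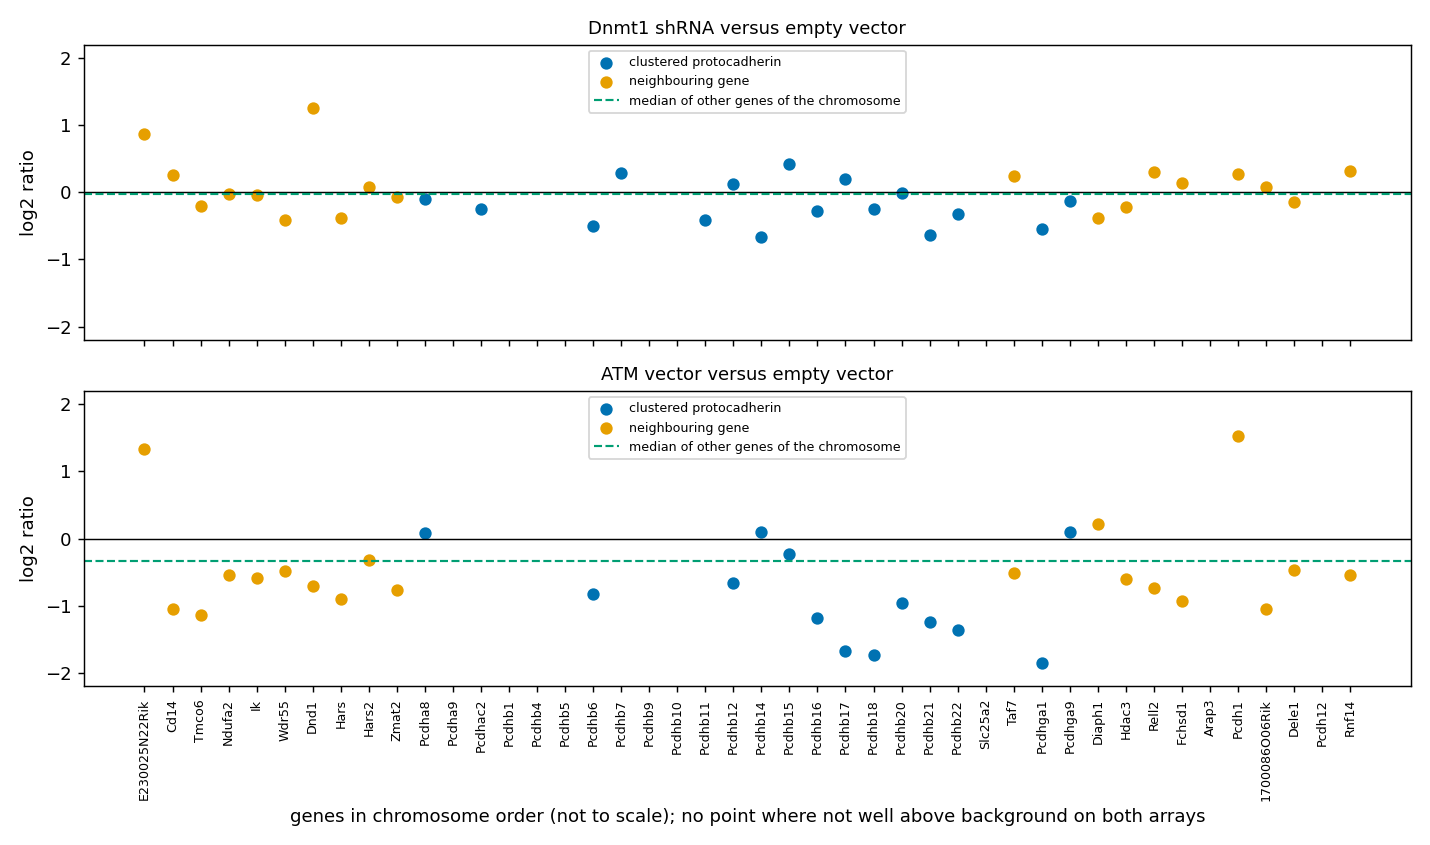
Log2 ratio to the control array (y axis) of the clustered protocadherins and their neighbours in chromosome order, not to scale (x axis), for the shRNA array (top) and the ATM-labelled array (bottom); genes not detected on both arrays have no point. In the lower panel most neighbours lie below 0 with a median of -0.58, and the dashed line at -0.33 is the median of the other genes of the chromosome.

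The chromosome median of -0.33 is negative, so subtracting it raises every member by the same amount. With the chromosome median subtracted, 5 members were at least 2-fold lower and 6 at least 2-fold higher by measured ratios. The 5 lower included Pcdhac2, not detected on the ATM-labelled array and at least 1.34-fold lower before this step. The 6 higher were Pcdha9, Pcdhb1, Pcdhb4, Pcdhb5, Pcdhb9 and Pcdhb10, all undetected on the control array. No share over all genes was computed with this step. Pcdhb17, Pcdhb18, Pcdhb22 and Pcdhga1 stood at -1.35, -1.41, -1.03 and -1.52, and Pcdhb16 and Pcdhb21 at -0.85 and -0.92. With the median of the neighbours subtracted instead, an alternative added after the values were seen, 4 were lower and 6 higher. Pcdhac2 was again among the lower, and the 6 higher were the same. Pcdhb17, Pcdhb18 and Pcdhga1 stood at -1.09, -1.16 and -1.27 and Pcdhb22 at -0.78. What part the shift of the chromosome has in the members' values was not tested.

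The genes that act on these clusters differed little. The list of CTCF, cohesin and cohesin loader or release factors had 11 genes, all detected on all 3 arrays, and 0 were 2-fold different in either comparison, with medians of -0.05 with the shRNA and -0.15 on the ATM-labelled array. Ctcf itself was at 0.04 and -0.41, the cohesin subunit Rad21 at -0.03 and -0.26 and the cohesin release factor Wapl at -0.28 and -0.52. Of 14 genes that silence or methylate the clusters or act in DNA methylation, Dnmt1 was the 1 past 2-fold, with the shRNA. Dnmt3b, the de novo methyltransferase that methylates protocadherin promoters, was at -0.06 and -0.43, and Smchd1, a chromatin protein needed for silencing within the clusters, at -0.12 and 0.32. Setdb1, a histone methyltransferase, and its partner Atf7ip were at -0.21 and 0.13 with the shRNA and at -0.65 and -0.98 on the ATM-labelled array.

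Among 19 tested partners and processing enzymes of the proteins, 1 was measured at least 2-fold higher with the shRNA and 2 on the ATM-labelled array, and 0 were lower. With bounds these counts were 0 and 1, and the shares over all genes given above for each comparison apply here too. Fyn, a kinase bound by alpha protocadherins, was the 1 of them detected on both arrays, at 802, 656 and 2415 units and 3.31-fold higher on the ATM-labelled array. Non-clustered protocadherins and large cadherins had 4 higher and 3 lower of 12 tested on that array, and 0 higher and 1 lower of 11 with the shRNA. Over all genes tested 8.45% were higher and 7.96% lower on that array, and 7.68% and 2.23% with the shRNA. With bounds they had 4 higher and 2 lower on the ATM-labelled array and 0 either way with the shRNA. On the ATM-labelled array Pcdh1 and Pcdh19 were 2.87-fold and 2.36-fold higher and Fat4, a giant cadherin of planar polarity, was 4.72-fold lower. Pcdh15, a cadherin of the hair-cell tip link, was counted at 3.01, the mean of 2 of its 6 probes, which disagreed. The probe detected on both arrays was at 1.08. The other was detected on the ATM-labelled array and not in the control, at 232 and 8.37 units, a ratio of 4.93.

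Classical cadherins and catenins had 3 higher and 1 lower of 11 tested on the ATM-labelled array, 2 and 1 with bounds. With the shRNA they had 1 higher and 0 lower of 11. The shares over all genes given for the non-clustered protocadherins apply here too. Cdh11, a cadherin of mesenchymal cells, was lower by both of its probes at -2.43 and -2.92, and Cdh13, a cadherin anchored by a lipid, was at 1.30.

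Markers of cell types differed beside these results. Of 15 fibroblast markers, 4 passed 2-fold upward and 1 downward with the shRNA, and 2 upward and 3 downward on the ATM-labelled array. Over all genes tested 7.68% were higher and 2.23% lower with the shRNA, and 8.45% and 7.96% on the ATM-labelled array. These shares stand beside every marker count below. With the shRNA Thy1, not detected on the control array, was at least 36.2-fold higher. Postn, a matrix protein, Lum and Pdgfra were 3.27-fold, 2.49-fold and 2.26-fold higher with it, and Fap 2.16-fold lower. On the ATM-labelled array Postn and S100a4, a calcium-binding protein, were 7.53-fold and 3.38-fold higher. The matrix proteoglycans Lum and Dcn were 9.23-fold and 2.15-fold lower, and Fap, a fibroblast surface protease, at least 23.8-fold lower. Neuron markers had 1 higher and 1 lower gene in each comparison, of 8 tested with the shRNA and 7 on the ATM-labelled array, and with bounds 0 higher with the shRNA. Their summed signal over the brightest probes was 14790, 15198 and 21538 units for all 13, and 10580, 9761 and 10303 units for the 12 without Tubb3, a tubulin of neurons. Tubb3 was 2.94-fold higher on the ATM-labelled array and Rbfox3, a splicing factor of mature neurons, at least 2.45-fold lower.

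Glial and neural progenitor markers had 3 higher and 1 lower of 8 with the shRNA. On the ATM-labelled array they had 3 higher and 2 lower of 8. Their summed signals were 20235, 24492 and 19492 units, of which Nes alone gave 19192, 21026 and 16848 units. The sum therefore mostly follows Nes and does not measure the list as a whole. S100b, a calcium-binding protein of glia, was 6.96-fold and 5.25-fold higher in these comparisons, and Sox2, Gfap, Olig1, Olig2 and Fabp7 were not detected on any array. Epithelial markers had 5 of 10 tested higher with the shRNA and 0 lower, and 1 higher and 2 lower of 6 on the ATM-labelled array. Their summed signals were 6077, 7295 and 5807 units. Of these Krt19 gave 5351, 4094 and 899 units and Krt14 gave 78.3, 296 and 4491 units. The keratin Krt14 was 4.24-fold and 63.1-fold higher in these comparisons, Krt18 was at least 39.8-fold higher with the shRNA, and Krt19 was 5.41-fold lower on the ATM-labelled array. Of 4 endothelial markers tested with the shRNA and 3 on the ATM-labelled array 0 passed 2-fold. Blood markers had 1 higher with the shRNA (Csf1r, a macrophage receptor, 2.04-fold) and 1 lower on the ATM-labelled array (Cd14), of 5 each. In these bulk samples fewer cells of a type and less RNA per cell cannot be told apart, and the part of these markers in the protocadherin values was not tested.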

How the data were processed

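Per the file headers, Agilent Feature Extraction version 10.7.3.1 wrote the deposited scanner files, which hold 1-colour intensity values. In them the authors' processed signal is an intensity with local background and spatial trend subtracted, with no scaling between arrays recorded. Other deposited columns are flags of 0 or 1 per spot, per the file headers. The deposited series matrix holds the same intensity values, within 0.495%, with column medians of 75.2, 80.4 and 68.6, so it is linear and uncentred.

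Control spots and the 228, 235 and 167 spots with outlier flags were left out, log2 signals were averaged per probe (39404 probes), and each array was centred on its own 75th percentile. Probes well above background numbered 21705 (55.1%), 23476 (59.6%) and 21659 (55.0%), and 0 spots were saturated. Log2 ratios of a gene average those of its probes well above background on at least 1 of both arrays. A gene dim on 1 array has a bound against the higher of its own signal and the lowest signal well above background there. The RefSeq table is of GRCm38.p6 and the array design of mm9, so it served for names and gene order only, and 26406 of 39429 probes matched 1 symbol. The ratio code was tested on simulated data. Python 3.11.15, numpy 2.4.6, pandas 2.3.3, R 4.3.3 and limma 3.58.1 (normexp with offset 50) were used.

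Every member detected on any array is named with its values on all arrays. In the pathway lists, genes at least 2-fold different and detected on both arrays are named, up to 4 per list. Regulators below 2-fold, cell type markers and Arap3 were named after their values were seen. The members and lists were chosen with earlier results of these data known.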

Additional observations from a re-analysis of the deposited data

How the results depend on the processing

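Subtracting the median of probes well above background on all 3 arrays, keeping outlier spots, taking the brightest probe of a gene or using the series matrix moved no cluster median by more than the SD between probes and left each count of members within 1.5 times. With the Dnmt1 shRNA the alpha median was -0.34 after quantile normalization and -0.37 without a filter, and the count at least 2-fold higher was 2 without a filter, 0 with normexp and 0 over probes detected on every array. The alpha median also changed sign with normexp, by less than the SD between probes, so it has no clear direction. On the ATM-labelled array the beta median was -0.31 with normexp and -1.07 over probes well above background on all 3 arrays, the gamma median was -0.080 without a filter, and the count at least 2-fold higher was 1 with normexp, 0 over probes well above background on all 3 arrays (6 lower) and 2 with bounds. With the median of the neighbours subtracted the medians there were 0.67 (alpha), -0.10 (beta) and -0.29 (gamma), and 4 members were at least 2-fold lower. With the less strict flag for positive and significant signal, 4 alpha and 4 gamma members were detected on the control array and 5 gamma members on the shRNA array. No member 2-fold different in a comparison changed sign in it under any alternative, but several alternatives could not show such a change. Bounds of the opposite sign were set to missing, and the subtracted medians were smaller than 2-fold. The filter on all 3 arrays left out members undetected on any of them. The files hold no mean signal, so normexp used median signals, and they hold no probe positions, so leaving out probes in shared exons was not run. No paired analysis was possible because each group has 1 array, and no array could be left out. Members not well above background on any array, 4 of 7 alpha, 5 of 22 beta and 4 of 6 gamma genes, have no ratio at this signal over background.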
